A study of Rattus norvegicus with 13 samples.

Results

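The genes described here encode matrix metalloproteinases, a collagen-cleaving cathepsin and the inhibitors that hold such enzymes in check. They were chosen by name as Mmp2, Mmp3, Mmp9, Mmp14, Timp1, Timp2, Timp3, Timp4, Ctsk and Reck. All 10 names were on the array, out of 26115 gene names in all, and they were read by 12 probes in 45 spots. RNA was taken from left ventricles of male rats, all 45 weeks of age and either wild type (WT) or overexpressing the beta-3 adrenergic receptor, a group written ADBR3 in the labels. The comparison of the 2 groups asks how the ventricle's messenger RNA differs when this receptor is overexpressed. The sources used here do not say how, or in which cells, the receptor was overexpressed. Each RNA was labelled with a single dye and hybridised to an Agilent rat array, 6 arrays for WT and 7 for ADBR3. Hearts 1 and 2 of each group were labelings of the same rat and were averaged, and 1 replicate hybridization in each group with no named partner was left out, which left 4 WT rats and 5 ADBR3 rats.

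Matrix metalloproteinases are zinc-dependent endopeptidases that cleave collagens and other proteins of the extracellular matrix, and most are made as inactive proenzymes. The tissue inhibitors of metalloproteinases (TIMPs) bind the active site of these enzymes, and Timp2 also bridges membrane-bound Mmp14 to the Mmp2 proenzyme, which Mmp14 then activates. In the heart these proteins take part in the turnover of interstitial collagen, and activation and inhibition act on the protein, which an array of messenger RNA does not measure.

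Probe sequences are shown for 6 of the 12 probes, 5′ to 3′ as the scanner files give them, so that it is plain which stretch of each transcript was read. They are the second probes of Mmp2 and Timp4, the probes of Mmp3 and Mmp9, which gave almost no signal above background, and the probes of Timp1 and Timp3, which varied much between rats. Capitals mark the longest run shared by the Timp3 probe and the Timp4 probe, 7 bases.
Mmp2 (A_64_P036955): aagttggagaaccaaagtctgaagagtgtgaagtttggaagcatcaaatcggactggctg
Mmp3 (A_44_P318318): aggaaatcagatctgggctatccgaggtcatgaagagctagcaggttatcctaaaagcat
Mmp9 (A_44_P501112): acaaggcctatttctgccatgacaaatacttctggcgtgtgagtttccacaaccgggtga
Timp1 (A_44_P461154): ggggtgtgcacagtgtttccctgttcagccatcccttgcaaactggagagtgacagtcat
Timp3 (A_43_P11604): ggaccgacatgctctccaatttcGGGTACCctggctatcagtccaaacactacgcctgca
Timp4 (A_64_P086061): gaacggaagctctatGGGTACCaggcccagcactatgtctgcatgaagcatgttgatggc

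Positions are those the array's design gives on rat build rn4. The Mmp2 probes lie on the minus strand at chr19:15246221-15246280 (A_44_P996729) and chr19:15246805-15246864 (A_64_P036955), with 524 bases between them. The Timp4 probes lie on the minus strand at chr4:151375657-151375716 (A_44_P1056949) and chr4:151375800-151375859 (A_64_P086061), with 83 bases between them. The single probes of Mmp14 (chr15:32503002-32503061), Mmp9 (chr3:155992463-155992522), Ctsk (chr2:190405601-190405660) and Reck (chr5:60407194-60407253) lie on the plus strand. Those of Timp2 (chr10:108311244-108311303) and Timp3 (chr7:19679721-19679780) lie on the minus strand. The Mmp3 interval, chr8:4325061-4325526, and the Timp1 interval, chrX:12542700-12543703, span 466 and 1004 bases for a probe of 60 bases. No 2 probes of different members shared a run longer than 8 bases, over 64 pairs. Exon and untranslated-region annotation of rn4 was not used here.

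The arrays were of similar brightness. The 75th percentile of the processed signal lay between 760.4 and 908.7, the share of spots well above background ranged from 55.2% to 67.8%, and no spot was saturated on any array. The number of arrays limits the precision. The probe for Adrb3, the receptor's gene, passed the scanner's background test on 0 of 6 WT arrays and 1 of 7 ADBR3 arrays. Whether the probe matches the overexpressed sequence is not stated, so it does not check the labels. All 10 heart muscle cell markers, such as Myh6 and Tnnt2, were tested, with mean levels of 6.62 to 6.84 in WT rats and 6.73 to 6.80 in ADBR3 rats. The largest difference among them was that of Mybpc3, 0.18 higher in ADBR3 rats (limma adjusted p = 0.393). Levels throughout are log2 processed signals minus the array's 75th percentile, so 0 is the level of that percentile. Genes were tested with limma where at least 4 of the 9 rats showed a probe well above background, and p-values were adjusted by Benjamini-Hochberg over all 15367 such genes.

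Of the 10 members, 8 passed this filter and none passed the adjusted threshold of 0.05. In all, 1 of 15367 genes did, which is 0.00651%, and over single probes 1 of 17587, or 0.00569%. Mean levels of 5 tested members were higher in ADBR3 rats and those of 3 were lower, with a median difference of 0.07 on the log2 scale, or 0.026 without ADBR3 rat 6 and 0.036 without WT rat 1. Over all genes the median difference was -0.0089 and 46.7% of genes had a difference above 0, or 61.0% when arrays were scaled to their median instead. The members' differences ran from -0.27 for Timp3 to 0.27 for Mmp2. At an unadjusted p under 0.05, limma held 1 of the 8, Mmp2, against 9.44% of all genes. Groups did not overlap for 1 of the 8, again Mmp2, against 3.52% of all genes in either direction, 1.22% in the higher direction and 2.3% in the lower.

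**Figure D1:**
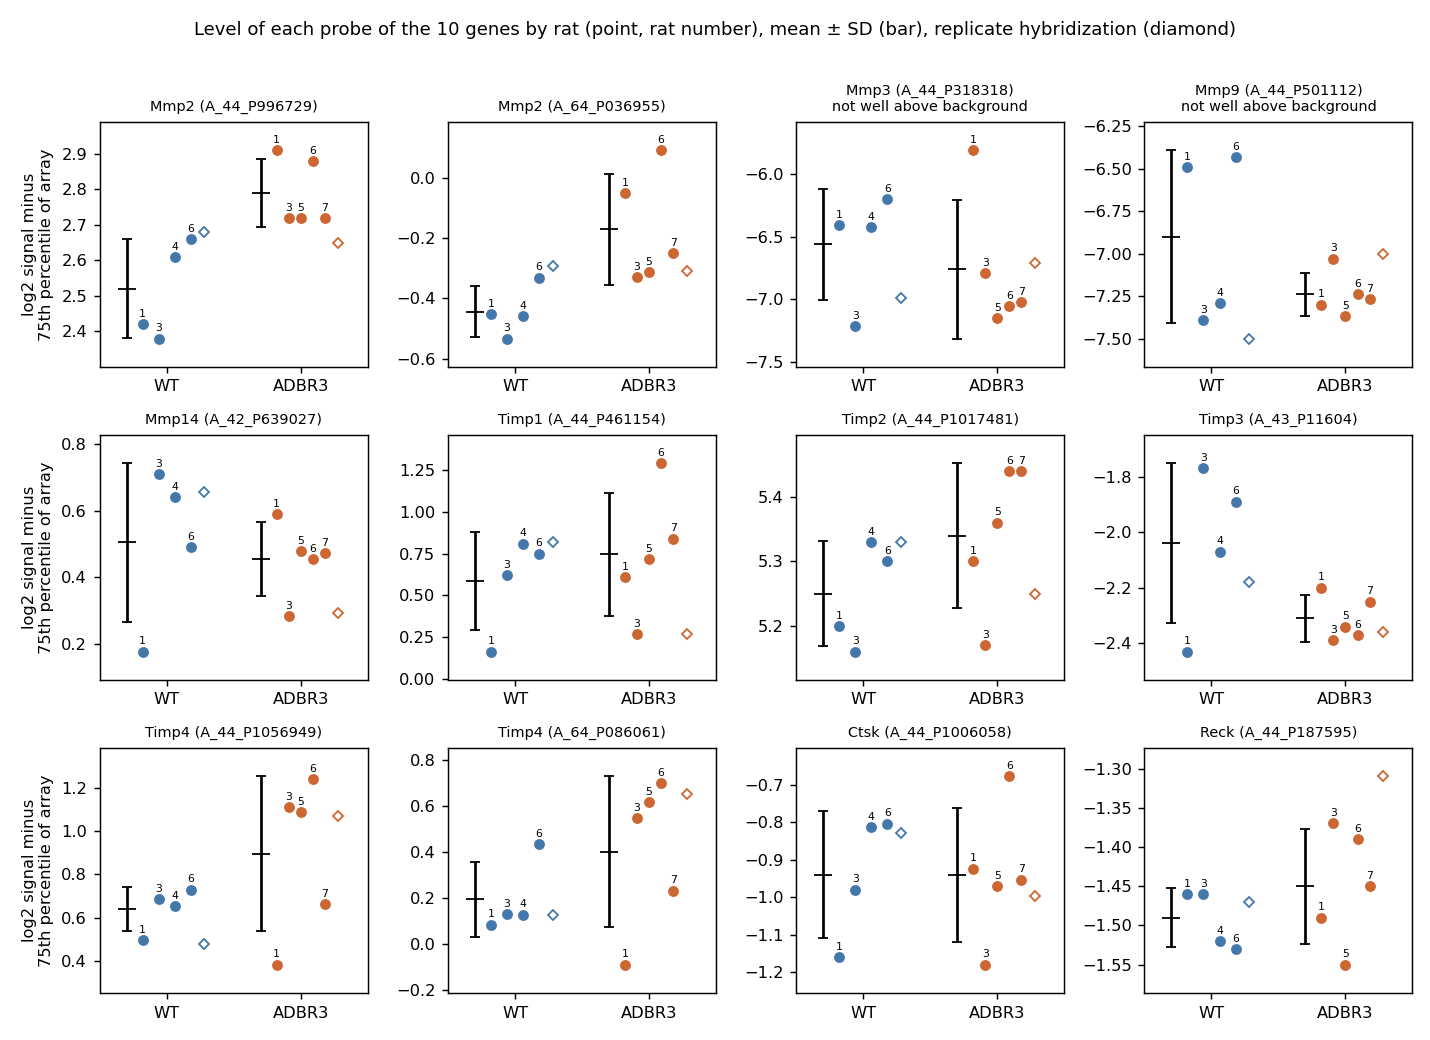
Level of each tested member in every rat, as log2 processed signal minus the array's 75th percentile, for 4 WT and 5 ADBR3 rats; points are rats and bars are group means. The groups lie apart for Mmp2 and overlap for the other 7 genes, and Timp1 and Timp4 spread most.

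Mmp2, or gelatinase A, cleaves denatured collagen and the type IV collagen of basement membranes. Its brighter probe read 2.42, 2.38, 2.61 and 2.66 in WT rats 1, 3, 4 and 6, and 2.91, 2.72, 2.72, 2.88 and 2.72 in ADBR3 rats 1, 3, 5, 6 and 7. Every ADBR3 rat was above every WT rat, and the gap between the highest WT rat and the lowest ADBR3 rat was 0.057. Means of 2.52 ± 0.14 (SD, n = 4) for WT and 2.79 ± 0.096 (SD, n = 5) for ADBR3 gave a difference of 0.27 (SE 0.078, 95% interval 0.097 to 0.45), or 1.21-fold. In limma the unadjusted p was 0.00658 and the adjusted p was 0.373, and the gene ranked 271 by p-value among the 15367. The exact two-sided permutation test gave 0.00794, which is the smallest p that 4 against 5 rats allow, and this p is not adjusted for the number of genes.

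The second Mmp2 probe, whose sequence is shown above, read -0.45, -0.53, -0.46 and -0.33 in the WT rats. In the ADBR3 rats it read -0.05, -0.33, -0.31, 0.09 and -0.25. Its difference was also 0.27, with limma p = 0.0187, adjusted p = 0.466 over 17587 probes, and an exact permutation p of 0.0317. WT rat 6 and ADBR3 rat 3 came within 0.0014 of each other, so for this probe the groups barely lay apart. Centred on their own means, the probes differed by a median of 0.072 and at most 0.17 in any rat. Both probes were read on the same RNA, so they are not independent samples.

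The left-out replicate hybridizations closed the gap for both probes. WT heart 5 read 2.68 with the brighter Mmp2 probe and -0.29 with the other, and ADBR3 heart 4 read 2.65 and -0.31. Over all 13 arrays the groups therefore overlapped at both probes. Over the 9 rats they also overlapped at the brighter probe under normexp background correction with quantile normalization, and at the second probe under normexp with either scaling. By slide, the ADBR3 minus WT difference of the brighter probe was 0.345 on slide 1 (2 WT rats, 1 ADBR3 rat), 0.112 on slide 3 (1 and 1) and 0.114 on slide 4 (1 and 2). The WT value on slide 4 was that of heart 5, the replicate hybridization, while ADBR3 heart 4, also on slide 4, was not used. With heart 4 added as an ADBR3 array the slide 4 difference was 0.064, a value added after seeing the data. By day of scanning it was 0.183 on the first day (1 WT rat, 3 ADBR3 rats) and 0.34 on the second (3 and 3), with ADBR3 rat 1 on both days through its 2 labelings. The difference was above 0 within every slide and day that held both groups. With slide as a block, which leaves the estimate mostly to slides 1 and 3, it was 0.22, with a limma adjusted p of 0.986.

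**Figure D2:**
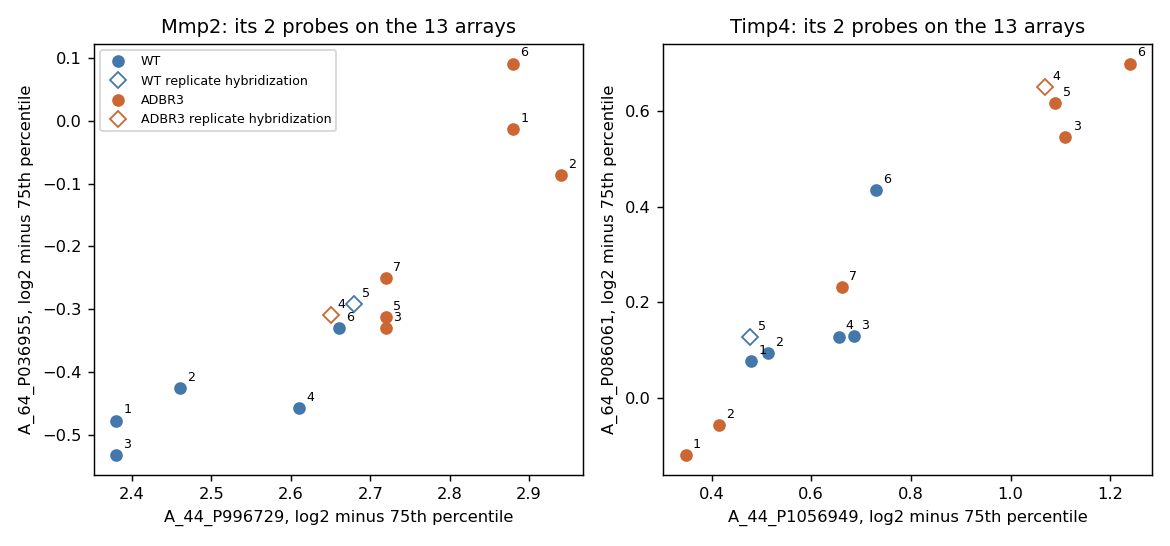
Level of the second probe against the brighter probe of Mmp2 (left) and Timp4 (right) in each rat, both axes as log2 processed signal minus the array's 75th percentile. ADBR3 rats lie above and to the right of the WT rats for Mmp2, and for Timp4 ADBR3 rat 1 lies below every WT rat on both probes.

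Mmp14, the membrane-bound enzyme that activates the Mmp2 proenzyme, was read by 10 copies of 1 probe. It stood at 0.18, 0.71, 0.64 and 0.49 in WT rats 1, 3, 4 and 6, and at 0.59, 0.29, 0.48, 0.46 and 0.47 in the ADBR3 rats. All ADBR3 values lay inside the WT range. WT rat 3 set the top of that range, and its spots had an SD of 1.04, against 0.035 to 0.10 on the other arrays. This SD was taken over all spots, while the level leaves out spots flagged as outliers. The means were 0.51 ± 0.24 (SD, n = 4) and 0.46 ± 0.11 (SD, n = 5), a difference of -0.049 (95% interval -0.30 to 0.20, limma adjusted p = 0.911, exact permutation p = 0.659). Its sign was not fixed: it was 0.033 in the authors' deposited table, 0.053 with slide as a block and 0.020 without WT rat 3.

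Mmp3, or stromelysin-1, cleaves proteoglycans and activates other proenzymes of the family. Its probe stood clear of background on none of the 6 WT arrays and on 1 of 7 ADBR3 arrays, that of heart 1. That array read -4.78, while heart 2, the second labeling of the same rat, read -6.84. The pair of spots on the heart 1 array differed with an SD of 3.5. Levels by rat ran from -7.21 to -6.20 in WT and from -7.15 to -5.81 in ADBR3. Mmp9, or gelatinase B, is an enzyme that neutrophils store in granules. Its 10 spots were not well above background on any array, with levels from -7.39 to -6.43 in WT and from -7.37 to -7.03 in ADBR3. Neither gene was tested and no fold is given for either.

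Ctsk, or cathepsin K, is a lysosomal cysteine protease that cleaves triple-helical collagen and is best known from osteoclasts. It ranged from -1.16 to -0.80 in WT rats and from -1.18 to -0.68 in ADBR3 rats. The means were -0.94 ± 0.17 (SD, n = 4) and -0.94 ± 0.18 (SD, n = 5), with a 95% interval of the difference from -0.25 to 0.25 and a limma adjusted p of 1. Differences within that interval, in either direction, are not excluded by these rats.

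Timp1, which inhibits most soluble metalloproteinases, varied most between rats of all tested members, with an SD of 0.33 over the 9 rats. It read 0.16, 0.62, 0.81 and 0.75 in WT rats 1, 3, 4 and 6, and 0.61, 0.27, 0.72, 1.29 and 0.84 in the ADBR3 rats. WT rat 1 was the lowest of all and ADBR3 rat 6 the highest, and the other values of the groups overlapped. The difference was 0.16 (SE 0.20, 95% interval -0.30 to 0.62, limma adjusted p = 0.819, exact permutation p = 0.476). Leaving out WT rat 1 brought it to 0.018, and leaving out ADBR3 rat 6 brought it to 0.023.

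Timp2 is the inhibitor that also takes part in Mmp2 activation. It read 5.20, 5.16, 5.33 and 5.30 in the WT rats and 5.30, 5.17, 5.36, 5.44 and 5.44 in the ADBR3 rats. The ranges overlapped, with 3 ADBR3 rats above every WT rat. The means were 5.25 ± 0.082 (SD, n = 4) and 5.34 ± 0.11 (SD, n = 5). The difference was 0.098 (95% interval -0.06 to 0.26, limma adjusted p = 0.663, exact permutation p = 0.183).

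Timp3, which binds to the matrix itself and inhibits ADAM proteases such as Adam17 besides metalloproteinases, had the most negative difference of the tested members. It read -2.43, -1.77, -2.07 and -1.89 in WT rats 1, 3, 4 and 6, and -2.20, -2.39, -2.34, -2.37 and -2.25 in the ADBR3 rats. Of the WT rats, 3 stood above every ADBR3 rat, while WT rat 1 stood below them all. The means were -2.04 ± 0.29 (SD, n = 4) and -2.31 ± 0.084 (SD, n = 5), a difference of -0.27 (SE 0.12, 95% interval -0.55 to 0.0076). The limma p was 0.0553 before and 0.529 after adjustment, and the exact permutation p was 0.103. Without WT rat 1 the difference was -0.40, with an adjusted p of 0.261, and without WT rat 3 it was -0.18. Within slides 1, 3 and 4 it was -0.147, -0.178 and -0.171, with the left-out WT heart 5 as the WT value on slide 4. Over the 10 tested probes, the labelings of WT rat 1 and ADBR3 rat 1 gave 20 pairs of values, and the widest gap among these, 0.223, was at the Timp3 probe.

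Timp4, the inhibitor of the family known for its high level in heart muscle, spread widely among the ADBR3 rats. Its brighter probe read 0.50, 0.69, 0.66 and 0.73 in WT rats 1, 3, 4 and 6, and 0.38, 1.11, 1.09, 1.24 and 0.66 in ADBR3 rats 1, 3, 5, 6 and 7. ADBR3 rats 3, 5 and 6 were above every WT rat, ADBR3 rat 1 was below them all, and rat 7 lay among them. The means were 0.64 ± 0.10 (SD, n = 4) and 0.90 ± 0.36 (SD, n = 5), a difference of 0.25 (SE 0.17, 95% interval -0.13 to 0.63, limma adjusted p = 0.639, exact permutation p = 0.206). The second probe gave the same order of the ADBR3 rats, at -0.09, 0.55, 0.62, 0.70 and 0.23 against 0.09, 0.13, 0.13 and 0.43 in WT, apart from rats 3 and 5, which changed places. Its difference was 0.21 (limma adjusted p = 0.700 over all probes, exact permutation p = 0.278).

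The Timp4 difference was not the same on each slide. It was -0.265 on slide 1, which held ADBR3 rat 1, and 0.0074 on slide 3, which held rat 7. On slide 4, which held rats 5 and 6, it was 0.683, with the left-out WT heart 5 as the WT value. With slide as a block it was -0.026. Slide 5 held ADBR3 arrays only, and on it the second labeling of rat 1 read 0.415 while rat 3 read 1.11, so these rats differed within a slide too. ADBR3 heart 4, the replicate hybridization on slide 4, read 1.07, and WT heart 5 on the same slide read 0.478. Without ADBR3 rat 1 it was 0.38 (limma adjusted p = 0.423), and without ADBR3 rat 6 it was 0.17 (adjusted p = 0.778).

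Reck is a membrane-anchored glycoprotein that inhibits several metalloproteinases, Mmp2, Mmp9 and Mmp14 among them. Its level was the steadiest of the members, with an SD of 0.061 over the 9 rats. It ranged from -1.53 to -1.46 in WT and from -1.55 to -1.37 in ADBR3. The difference was 0.043 (95% interval -0.073 to 0.16, limma adjusted p = 0.804), an interval narrower than that of any other tested member.

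**Figure D3:**
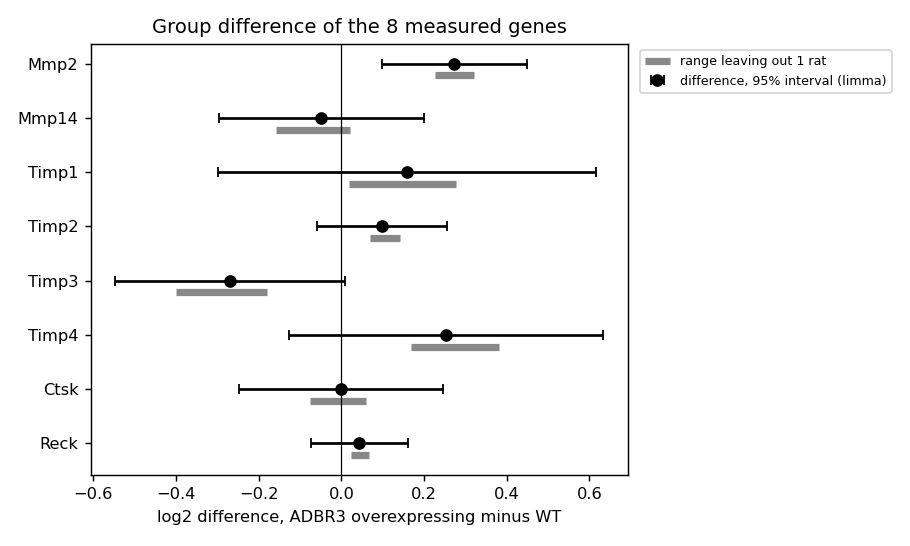
ADBR3 minus WT difference of each tested member on the log2 scale, with its 95% interval from limma. The Mmp2 interval, 0.097 to 0.45, lies above 0 before any adjustment for the number of genes, and those of the other 7 members include 0.

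The balance of enzyme to inhibitor was followed within each rat, as the level of one gene minus that of another, set to 0 at the WT mean. A scaling that shifts all log2 levels of an array by the same amount leaves such a difference as it is. Mmp2 minus Timp2 was -0.05, -0.05, 0.01 and 0.09 in WT rats 1, 3, 4 and 6, and 0.34, 0.28, 0.08, 0.16 and 0.01 in the ADBR3 rats. The mean of the ADBR3 rats was 0.18 ± 0.13 (SD, n = 5) above that of WT, whose SD was 0.066 (n = 4), and ADBR3 rats 5 and 7 fell within the WT range. Mmp14 minus Timp2 averaged -0.15 ± 0.11 in ADBR3, Mmp2 minus Timp1 averaged 0.12 ± 0.34 and Mmp2 minus Timp4 averaged 0.020 ± 0.40, against WT SDs of 0.24, 0.23 and 0.12. The groups overlapped in all 4 of these ratios. Ratios to Timp3 and Reck were not formed, so these 4 do not cover every inhibitor. Mmp9 minus Timp1 could not be formed, because Mmp9 was not above background.

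Single rats stood out across several members. ADBR3 rat 6 had the highest level of 4 tested members, Ctsk, Timp1, Timp4 and Timp2 (there level with rat 7 at 5.44), and lay on average 0.20 above the members' means. WT rat 1 had the lowest level of 3, Mmp14, Timp1 and Timp3, and lay on average 0.24 below them. The means over some marker lists of other cell types were also highest in ADBR3 rat 6. Its mean over 6 tested adipocyte markers was 1.17, against at most 0.575 in any other rat. Among the ADBR3 rats, Adipoq (SD 2.28) and Retn (SD 1.44) varied far more than the rest of this list, with SDs of 0.034 to 0.21. The mean of ADBR3 rat 6 over 14 tested markers of valve, mesothelium, nerve and atrium was 0.503, against at most -0.163. In this list the SDs among ADBR3 rats ran from 0.082 to 1.55, so its mean need not reflect every kind of marker in it. The fibroblast markers averaged 0.875 in this rat, and the next rat stood at 0.864. The part of these cells in the levels of Timp1, Timp4 and Ctsk was not tested, and in a bulk sample fewer cells of a type and less RNA per cell cannot be told apart.

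**Figure D4:**
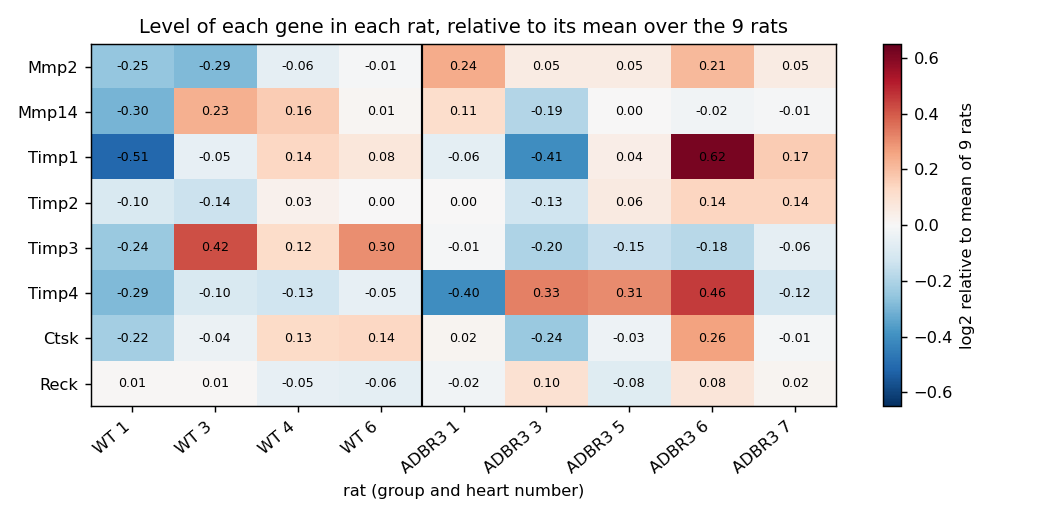
Level of each tested member in every rat minus the gene's mean over the 9 rats, on the log2 scale, with WT rats first. WT rat 1 is low for most members and ADBR3 rat 6 is high for Timp1 (0.62) and Timp4 (0.46).

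Gene symbols outside the members were ranked by how closely they followed a member over the 9 rats, as the root mean square difference of gene-centred log2 levels over 10963 symbols. This is a description with no test, and the genes compared were read on the same arrays. The symbols nearest to Timp1 were Vcam1, an endothelial adhesion molecule (0.126), Htr2b, a serotonin receptor (0.133), and Ecm1, an extracellular matrix protein (0.137). Nearest to Timp4 were the small GTPase gene Arf6 (0.13), Bcl2l1, which encodes an inhibitor of apoptosis (0.137), and Zfyve20 (0.154). Nearest to Timp3 were Twf1, which encodes an actin-binding protein (0.103), Neurl3 (0.106) and Mob1b (0.108).

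Other genes of matrix breakdown were followed as lists, and none of their tested genes passed the adjusted threshold. Of 21 other metalloproteinases, 18 were on the array and 5 were tested. Among these 5, 4 were higher and 1 was lower in ADBR3 rats, with a median difference of 0.12. Without WT rat 1 or ADBR3 rat 6 it was 3 higher and 2 lower, with medians of 0.057 and 0.067. Mmp17, a membrane-anchored enzyme, was 0.22 higher (limma adjusted p = 0.513), Mmp15 was 0.14 higher, Mmp23 0.12 higher and Mmp24 0.027 higher, while Mmp11 differed by -0.15. The other 13 on the array were too dim to test. Of these, 8 were well above background on no array, 3 on ADBR3 arrays only and 2 on WT arrays only. Mmp8, the neutrophil collagenase, was so on 3 ADBR3 arrays, and Mmp19 on 2 WT arrays.

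For the remaining cathepsins and their cystatin inhibitors, 15 of 22 were tested, with 9 higher, 6 lower and a median difference of 0.0017. The count turned to 7 higher and 8 lower under quantile normalization. Ctsh differed by 0.20 (limma adjusted p = 0.497) and Ctsw, a cathepsin of cytotoxic lymphocytes, by -0.70 (adjusted p = 0.506), the latter being well above background on 4 WT and 2 ADBR3 arrays. For ADAM and ADAMTS proteases 17 of 35 were tested, with 10 higher, 7 lower and a median of 0.034, or 0.0048 without ADBR3 rat 6. Adam17, a target of Timp3, differed by -0.11, and Adamts2, which trims procollagen, by 0.17. For the plasminogen system, which activates metalloproteinase proenzymes, 9 of 12 were tested, with 5 higher, 4 lower and a median of 0.0079, a sign that normexp background correction and the authors' deposited table turned. Without WT rat 1 the median was -0.072 and without ADBR3 rat 6 it was -0.043, with 2 higher and 7 lower either way. Plaur, the urokinase receptor, differed by -0.19, and no gene of this list had an unadjusted limma p under 0.05.

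Activators, receptors and other regulators of metalloproteinases had 10 of 19 genes tested, with 7 higher, 3 lower and a median of 0.11, or 0.07 without ADBR3 rat 6. Groups lay apart for 2 of them, both higher, against 3.52% of all genes in either direction and 1.22% in the higher direction. Thbs2, or thrombospondin 2, which binds Mmp2 and promotes its uptake, was 0.34 higher (limma adjusted p = 0.323), and Furin, a convertase that cleaves the Mmp14 proenzyme, was 0.11 higher (adjusted p = 0.526). Lrp1, the receptor that takes up Mmp2 with Thbs2, was 0.24 higher (adjusted p = 0.445), with overlapping groups. Spock2, a matrix proteoglycan, was 0.57 higher (adjusted p = 0.559). Cytokines and transcription factors that induce metalloproteinases had 18 of 22 tested, 9 higher and 9 lower, with a median of -0.0072, or -0.053 without ADBR3 rat 6. The sign turned without WT rat 1, under median scaling, quantile normalization and normexp with quantile normalization and in the authors' deposited table. Jund, a subunit of the transcription factor AP-1, was 0.23 higher (limma adjusted p = 0.306), and Fosb, another subunit, differed by -0.39 (adjusted p = 0.499). Groups lay apart for 1 of the 18 tested, Jund, against 3.52% of all genes in either direction and 1.22% in the higher direction.

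Messenger RNAs of the matrix proteins that these enzymes cleave were mostly higher on average in ADBR3 rats. Of 20 substrates, 19 were tested, with 17 higher in ADBR3 rats, 2 lower and a median difference of 0.13, against -0.0089 over all genes. The median was between 0.084 and 0.17 under the other scalings and in the authors' deposited table. Without WT rat 1 it was 15 higher and 4 lower, with a median of 0.10. Without ADBR3 rat 6 it was 16 higher and 3 lower, with a median of 0.073. Col4a2, a chain of basement membrane collagen, was 0.36 higher (limma adjusted p = 0.287). Groups lay apart for 1 of the 19 tested, Col4a2, against 3.52% of all genes in either direction and 1.22% in the higher direction. The fibrillar collagen genes Col1a1, Col1a2 and Col3a1 were 0.26, 0.17 and 0.15 higher (adjusted p = 0.607, 0.599 and 0.709), and fibronectin, Fn1, was 0.32 higher (adjusted p = 0.621).

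Marker levels of the cells that make and store these proteins are given beside them. Of 16 tested fibroblast markers, 14 were higher and 2 lower, with a median of 0.079. Without WT rat 1 it was 11 higher and 5 lower, with a median of 0.078. Without ADBR3 rat 6 the median was 0.0555. The mean over these markers was 0.424 to 0.655 in WT rats and 0.479 to 0.875 in ADBR3 rats. This list shares 4 genes with the substrates. Smooth muscle and pericyte markers were higher for 8 of 10, with a median of 0.048, but were even without ADBR3 rat 6, with 5 higher, 5 lower and a median of 0.012. Endothelial markers were lower for 10 of 12, with a median of -0.038. Under median scaling 6 were higher and 6 lower, while 61% of all genes had a difference above 0 in that setting. Macrophage and monocyte markers were lower for 10 of 13, with a median of -0.13, or -0.20 without ADBR3 rat 6, and rat means of -0.404 to -0.019 in WT and -0.451 to -0.125 in ADBR3. Neutrophil and mast cell markers were lower for 6 of 9, with a median of -0.23. They split 4 higher and 5 lower without WT rat 1, without ADBR3 rat 6 and under median scaling. The median was -0.066 under normexp with quantile normalization, -0.097 in the authors' deposited table and -0.13 under normexp with the percentile. Mcpt10, a mast cell protease, differed by -0.85 (limma adjusted p = 0.299). Groups lay apart for 1 of the 9, Mcpt10, against 2.3% of all genes apart in the lower direction. The other tested mast cell genes of this list were mixed. Cma1 differed by -0.34, Cpa3 by -0.23 and Tpsab1 by -0.0094, while Tpsb2 was 0.051 and Kit 0.21 higher. Of the neutrophil genes in this list, Mpo was well above background on 1 WT array and no ADBR3 array, and Elane on none. By contrast S100a9 was so on 6 WT and 7 ADBR3 arrays, and S100a8 on 5 and 5. The part of these cell types in the levels of Mmp2, the TIMPs and the substrates was not tested.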

How the data were processed

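Left ventricle RNA was measured on 13 one-colour arrays. The deposited scanner files hold spot intensity values from Agilent Feature Extraction 10.7.1.1, per the file headers, which subtract background within the array, and the array design names build rn4. The authors' deposited series table, used as an alternative, follows the natural log of the scanner's spot signal, and its scaling between arrays is not stated. Every value column was mapped to a sample. Control spots were left out, log2 processed signal was taken minus each array's 75th percentile, and spots of a probe were averaged, without outlier-flagged spots where another remained. On an array a probe passed the background test if at least 0.5 of its spots did, and in a rat if it did so on all that rat's arrays. The brightest kept probe stood for a gene. Groups were compared with limma 3.58.1 (lmFit and eBayes, group only) in R 4.3.3, checked on simulated data, with Benjamini-Hochberg adjustment. Single genes also had an exact two-sided permutation test over rats. Rats are the replicates. WT heart 5 and ADBR3 heart 4, labelled as replicate hybridizations without a named partner, were left out. Of the members, 9 matched a RefSeq accession with the same symbol.

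The members, lists and tests were chosen with earlier results of these data known. The text names all 10 members, at most 4 tested genes per list by smallest unadjusted p, at most 2 untested ones, 3 collagen genes, and the 3 symbols nearest to each of the 3 members with the largest SD. Outside this rule it names every tested gene of the other metalloproteinases, and Myh6 and Tnnt2 as examples. It also names Adipoq for its spread, and Cpa3, Tpsab1, Tpsb2 and Kit beside Mcpt10. Alternatives were median or quantile scaling, normexp (offset 50), the authors' table, other filters and probe rules, trended and robust variance, each labeling of rat 1, the replicate hybridizations as samples, slide and scan day as blocks, a replicate block, and leaving out each rat. Counts over the lists under other scalings, and without WT rat 1 or ADBR3 rat 6, were added after seeing the data. The arrays came on 5 slides, scanned on 2 days. Slides 1, 3 and 4 held both groups, slide 4 only through WT heart 5, which was left out of the comparison of rats.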

Additional observations from a re-analysis of the deposited data

Results flagged for a closer look

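A single rat lay far from the others of its group in 3 of 32 groups of values examined for the members, and chance alone marks about 1 in 20 groups. For Mmp3 in ADBR3, rat 1 was the highest at -5.81, with the next rat at -6.79, and the gap was 0.731 of the group's range. This value rests on 1 array on which the pair of spots differed with an SD of 3.5, while the second labeling of the same rat read -6.84. For the second Timp4 probe (A_64_P086061) in WT, rat 6 was the highest at 0.434, with the next rat at 0.129 and a gap of 0.874 of the range. The brighter Timp4 probe also read highest in WT rat 6, at 0.73, but close to rat 3 at 0.69. For Mmp2 minus Timp4 in WT, rat 3 was the lowest at -0.183, with the next rat at 0.0484 and a gap of 0.872 of the range.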

How the results depend on the processing

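No member passed the adjusted threshold under any of 25 alternatives, of which 9 left out 1 rat each. The median difference of the members, 0.07, stayed between 0.021 and 0.11 under the 16 others and between 0.026 and 0.10 without single rats. The value of 0.021 came with no filter on dim probes, which counts all 10 members, Mmp3 and Mmp9 among them. With the 8 tested members the lowest of the 16 was 0.048, with the replicate hybridizations as samples. The count of genes past the threshold, 1, was 2 with normexp under either scaling and in the authors' table, 8 with trended and robust variance, 6 with the replicate hybridizations as samples, 0 with slide as a block, and 0 to 13 without single rats. The sign of Ctsk turned most: 0.041 with median scaling, 0.010 with quantile normalization, 0.0061 and 0.021 with normexp under percentile and quantile scaling, 0.031 in the authors' table, 0.0026 with the second labeling of rat 1, 0.019 with scan day as a block, and -0.075 to 0.059 without single rats. Mmp14 was 0.033 in the authors' table, 0.053 with slide as a block, and -0.16 to 0.020 without single rats. Timp4 was -0.026 with slide as a block. Rats 1, 3 and 6 share numbers across groups, and same-numbered rats correlated at 0.106, 0.0347 and 0.124. The highest correlation of these WT rats with an ADBR3 rat of another number was lower each time, at 0.0416, 0.0239 and 0.065. All these values are low, and they do not settle whether the numbers pair the rats. With a replicate block over these rats Mmp2 was 0.35 (limma adjusted p = 0.489, or 0.533 without the block), Ctsk was 0.055 with and without it, and 0 genes passed either way. Other scalings moved the median of all genes by at most 0.042. With 4 and 5 rats the exact test cannot go below 0.00794. On slides 2 and 5, which held 1 group each, group and slide cannot be told apart. In the comparison of the 9 rats this also holds for slide 4, whose only WT array, heart 5, was left out. Dim probes, such as those of Mmp3 and Mmp9, limit what can be said of these enzymes.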
